A study of Homo sapiens with 4 samples.

Results

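The ZNF genes of the chromosome 19 long arm are 166 protein-coding genes whose symbol is ZNF followed by a number and whose listed start lies at or beyond base 25000000 of chromosome 19 in hg38. They were taken from 19901 genes by a rule on symbol and position that used no expression value. The family itself was chosen with earlier results of these data known. The counts come from TT-Seq, which purifies RNA made during a short pulse of the nucleoside 4-thiouridine (4sU), in HCT116, a human colorectal carcinoma cell line. Every library came from the same clone (D5), in which the endogenous KAP1 protein carries a dTAG degron, so the controls carry the tag as well. Cells grown in 7% serum received the vehicle DMSO for 8 h in one group and the dTAG compound, which sends the tagged protein to the proteasome, for 8 h in the other. Both groups then received 500 μM 4sU for 10 min, and each group had 2 libraries. The comparison addresses whether nascent RNA from these genes differed after KAP1 was removed.

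Most ZNF genes of this arm encode C2H2 zinc finger proteins, which read DNA through tandem fingers and often begin with a KRAB domain. The KRAB domain binds KAP1 (gene symbol TRIM28), which brings the methyltransferase SETDB1, HP1 proteins and histone H3 lysine 9 trimethylation to the bound DNA, transposable elements above all. KAP1, ZNF274 and the same histone mark are also found over the 3′ finger exons of ZNF genes themselves, so these genes are at once partners and bound sites of KAP1.

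Gene counts per library ranged from 93105627 to 102314741. Summed over 7 epithelial markers, levels lay between 927 and 1010 CPM (counts per 1000000 of the library total scaled by its TMM factor) in the 4 libraries, whereas 5 blood cell markers reached 0.525 to 1.01 CPM, 3 endothelial markers 1.77 to 2.60 CPM and 6 fibroblast markers 5.15 to 5.90 CPM. At 0 were 3 of the fibroblast markers and CEACAM5, an epithelial marker covered by a same-strand gene. Since the dTAG compound acts on the protein, counts of TRIM28 do not check the depletion. TRIM28, which lies on the same arm, read 61.7 and 69.8 CPM with DMSO and 53.5 and 47.9 CPM with dTAG. Its log2 fold change was -0.37 (adjusted p = 0.019, edgeR quasi-likelihood test). The GC content of TRIM28 was 59.3%, and tested genes of 56% to 60% GC had a median of -0.21 and a lower quartile of -0.34. The part of GC content in this fall was not tested. In bulk samples such as these, fewer transcribing cells and less RNA per cell cannot be told apart. The 2 DMSO libraries differed from each other along GC content: across all 12612 tested genes, the log2 ratio of DMSO replicate 2 to replicate 1 had a Spearman correlation of 0.746 with the GC content of the gene, and across the 94 tested ZNF genes of the arm it was 0.518.

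The sequences upstream of ZNF274 and ZNF134 are shown first, because these had the largest log2 fold changes among the called ZNF genes of the arm. They end at the base before the first annotated exon, read 5′ to 3′ on the strand of the gene, and come from the RefSeq table for GRCh38.p14. Capitals mark the letters ACTTCCG, the core of sites bound by ETS factors.
ZNF274 (chr19:58182811-58183028, plus strand): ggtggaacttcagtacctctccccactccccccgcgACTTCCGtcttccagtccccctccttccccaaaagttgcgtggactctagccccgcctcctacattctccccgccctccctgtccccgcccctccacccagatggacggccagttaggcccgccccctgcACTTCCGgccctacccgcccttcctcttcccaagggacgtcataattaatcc
ZNF134 (chr19:57613992-57614232, plus strand): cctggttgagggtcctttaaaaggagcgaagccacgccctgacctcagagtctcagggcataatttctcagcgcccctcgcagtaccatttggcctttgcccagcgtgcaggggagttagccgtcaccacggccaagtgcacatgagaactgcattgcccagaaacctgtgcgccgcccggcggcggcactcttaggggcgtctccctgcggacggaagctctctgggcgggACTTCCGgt

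Both stretches are rich in G and C (64.2% over 218 bases for ZNF274 and 62.2% over 241 bases for ZNF134). Of the 166 genes, 145 had an entry in the promoter table, and 37 of these (25.5%) held ACTTCCG on either strand within the 250 bases before the start that RefSeq gives. That start lay within 250 bases of the start listed in the count table for 110 of the 145 genes and further inside the listed gene for 34. The same letters were present in 5.69% of all 35116 promoters of the table, in 11.2% of the promoters of tested genes, in 13.5% of 74 ZNF promoters of the short arm and in 7.44% of 511 promoters of other genes on the long arm. The median log2 fold change was -0.0046 for the 21 tested ZNF genes that held them and 0.099 for the 61 that did not. These letters, and those of YY1 and NRF1 used later, were chosen after the promoters of the called genes had been read.

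The family is large but compact. Translation of the annotated transcripts gave a protein for 164 of the 166 genes, with a median of 12 fingers and a highest number of 29, in ZNF850. A KRAB A box was recognised in 135 genes, a partial match in 3 (ZNF446, ZNF473 and ZNF180), and none in 26, among them ZNF146, a protein made almost wholly of fingers, and ZNF444, which carries a SCAN domain instead. Gene lengths ran from 3.12 to 485 kb with a median of 23.1 kb. By starts more than 1 Mb apart the genes fell into 11 position clusters, of which the largest held 60 genes (ZNF628 to ZNF446, 55.5 to 58.5 Mb), 40 genes (ZNF175 to ZNF331, 51.6 to 53.6 Mb), 27 genes (ZNF565 to ZNF573, 36.2 to 37.8 Mb) and 24 genes (ZNF575 to ZNF296, 43.5 to 45.1 Mb).

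Of the 166 genes, 94 reached at least 50 counts in every library and were tested, and 72 did not. Overlaps between genes set part of this. Across the whole table, 475 of 489 genes whose interval was fully covered by other genes on the same strand had 0 counts in all libraries, and the highest count summed over the 4 libraries was 35. Of 581 genes fully covered on the opposite strand only, 239 reached the minimum. Reads in same-strand overlaps were therefore left out of the counts, and a 0 in such a gene does not measure its transcription. Of the 19 ZNF genes of the arm at 0 in all 4 libraries, 18 were covered on the same strand over 86.9% to 100% of their length. They included ZNF417, which controls transposable elements together with its near copy ZNF587, as well as ZNF8, ZNF17, ZNF223, ZNF585A and ZNF841. ZNF256 alone was at 0 without any overlap, which allows at most 3 counts per library, or 0.0300 to 0.0332 CPM, counting error only.

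With dTAG, ZNF274, ZNF134, ZNF649, ZNF577 and ZNF566 rose, and none of the 94 tested genes fell (edgeR quasi-likelihood test, Benjamini-Hochberg adjusted p under 0.05 over 12612 genes, a call in what follows). These 5 calls made up 5.32% of the tested ZNF genes of the arm, beside 3.44% of all tested genes. Called falls made up 3.66% of all tested genes, and calls in either direction 7.10%. At an unadjusted p under 0.05, 11 of the ZNF genes were higher and 8 lower, beside 12.3% and 14.3% of all tested genes. DESeq2 called 9 higher (9.57%, beside 5.39% of all tested genes) and 0 lower (beside 4.54%). Both dTAG libraries lay above both DMSO libraries in 37 of the 94 genes (39.4%, beside 28.1% of all tested genes) and below them in 18 (19.1%, beside 30.7%). Groups that did not overlap in either direction made up 58.8% of all tested genes.

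ZNF274 (chr19:58183028-58213562, plus strand) encodes a KRAB protein with 5 fingers that binds the 3′ ends of other ZNF genes and recruits SETDB1 and KAP1 there. It read 14.5 and 16.1 CPM in DMSO replicates 1 and 2, and 22.0 and 22.7 CPM in dTAG replicates 1 and 2. The groups did not overlap, and the gap between them was wider than the gap within either. Its log2 fold change was 0.55 ± 0.11 (SE, adjusted p = 0.0062), the highest among the tested ZNF genes of the arm. The rise was called under 13 of 16 alternative settings.

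ZNF134 (chr19:57614232-57624723, plus strand) has 10 fingers and no recognised KRAB A box. Its values were 14.8 and 17.4 CPM with DMSO and 20.7 and 21.6 CPM with dTAG, a log2 fold change of 0.39 ± 0.12 (adjusted p = 0.047). The lower dTAG library stood above the higher DMSO library, although the DMSO libraries lay further apart than the dTAG libraries. ZNF134 was called under 10 of 16 alternatives.

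ZNF566 (chr19:36445118-36489902, minus strand) is a KRAB gene with 7 fingers that overlaps no other gene of the table. It stood at 43.6 and 42.1 CPM with DMSO and at 52.4 and 55.1 CPM with dTAG (log2 fold change 0.33 ± 0.089, adjusted p = 0.032). Here the DMSO libraries were within 2 CPM of each other, and both dTAG libraries were higher. ZNF566 was called under 10 of 16 alternatives.

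ZNF649 and ZNF577 are minus-strand neighbours whose intervals overlap. ZNF649 (chr19:51889223-51905040) is a KRAB gene with 10 fingers whose product represses reporters driven by serum response and AP-1 elements. It had 30.2 and 35.7 CPM with DMSO and 43.6 and 41.4 CPM with dTAG (log2 fold change 0.37 ± 0.10, adjusted p = 0.032). ZNF577 (chr19:51804815-51890950), a KRAB gene with 7 fingers, had 42.2 and 36.0 CPM with DMSO and 49.8 and 50.9 CPM with dTAG (log2 fold change 0.36 ± 0.096, adjusted p = 0.026). The shared stretch was 10.9% of ZNF649 and 2.01% of ZNF577. Neither gene could be tested in the setting limited to genes without overlaps, and of 15 other settings ZNF649 was called under 10 and ZNF577 under 9.

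**Figure D1:**
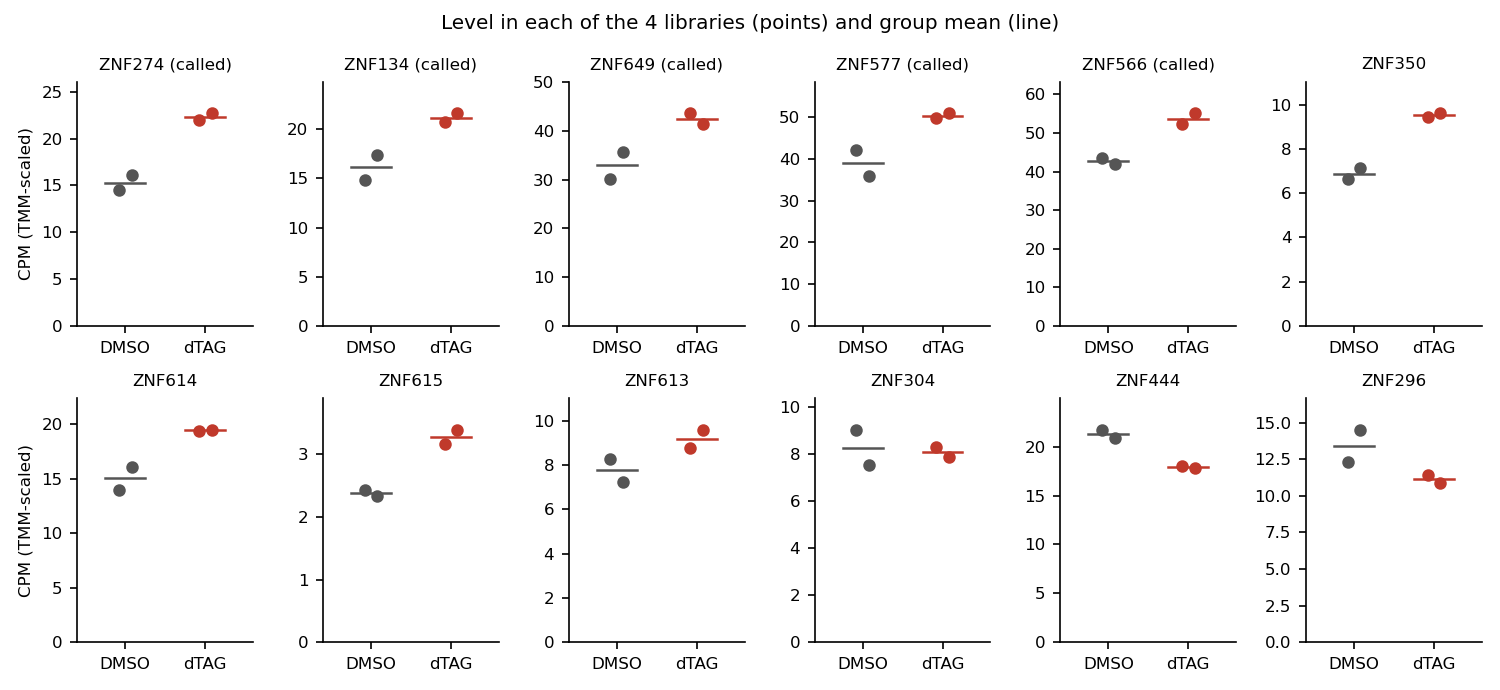
Level (TMM-scaled CPM, y axis from 0) of 12 ZNF genes in the 2 DMSO and 2 dTAG libraries (points) with the group mean (line). The 5 called genes and ZNF350, ZNF614, ZNF615 and ZNF613 have both dTAG libraries above both DMSO libraries, ZNF304 overlaps between groups, and ZNF444 and ZNF296 are lower with dTAG without being called.

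All 5 calls remained when either DMSO library was left out, and none did when either dTAG library was left out, where the spread comes from the DMSO pair alone. Without DMSO replicate 1, 23 ZNF genes of the arm were called, 10 higher and 13 lower (24.5%, beside 43.4% of all tested genes). Without DMSO replicate 2, 14 were called and all were higher (14.9%, beside 6.40% of all tested genes higher). When the trend of each library on GC content and gene length was removed, 12 were higher (12.8%, beside 10.6% of all tested genes) and 1 was lower (ZNF264, 1.06%, beside 7.46%), and the 5 called genes were among the 12.

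ZNF577 and ZNF649 open a run of 6 neighbouring ZNF genes in which both dTAG libraries exceeded both DMSO libraries. The run spans 225 kb (chr19:51804815-52030240) and was picked out after the values were seen. The others are ZNF613, ZNF350, ZNF615 and ZNF614, all KRAB genes. ZNF350, also known as ZBRK1, binds BRCA1 and represses GADD45A. ZNF350 read 6.62 and 7.13 CPM with DMSO and 9.42 and 9.60 CPM with dTAG (log2 fold change 0.47 ± 0.14, adjusted p = 0.052), so that its groups stood clearly apart while its adjusted p was just above the threshold. ZNF614 read 14 and 16.1 CPM with DMSO and 19.4 and 19.5 CPM with dTAG (log2 fold change 0.37, adjusted p = 0.059). ZNF615, which had the fewest counts of the run, read 2.42 and 2.33 CPM with DMSO and 3.15 and 3.38 CPM with dTAG (log2 fold change 0.46, adjusted p = 0.15). ZNF613 read 8.28 and 7.25 CPM with DMSO and 8.77 and 9.58 CPM with dTAG (log2 fold change 0.24, adjusted p = 0.29), the closest pair of groups. Across the run, log2 fold changes lay between 0.24 and 0.47, and 2 of 6 were called. With GC content and length trends removed they lay between 0.19 and 0.42 and 4 of 6 were called. That setting called 18.1% of all tested genes. With upper-quartile normalization, with a replicate block or with ERCC spike-in totals as library sizes, 0 of 6 were called. With the spike-in factor as a covariate the lowest log2 fold change of the run was 0.012.

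The promoters of the run also share letters. The RefSeq promoter table had an entry for 5 of the genes, all but ZNF649, and all 5 held AANATGG, the core of sites bound by YY1, on either strand in the 250 bases before the RefSeq start. Each line below gives 29 bases around such a match on the strand of the gene, with the 7 letters in capitals, and ZNF566 is added as the other called gene with a match.
ZNF577 (chr19:51888056-51888084, minus strand): cagtagggttgAAAATGGctgctcccagc
ZNF613 (chr19:51927332-51927360, plus strand): tgcaggattcaAAGATGGctgcctccagt
ZNF350 (chr19:51986965-51986993, minus strand): tccaattttcaAACATGGctgccgtcagg
ZNF615 (chr19:52008271-52008299, minus strand): tcagatactcaAAGATGGcggcccccatg
ZNF614 (chr19:52028596-52028624, minus strand): aaagggcgccgCCATCTTttttccacagc
ZNF566 (chr19:36489637-36489665, minus strand): acgatcgggaaCCATCTTgtccggccttg

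In the matches shown for ZNF577, ZNF613, ZNF350 and ZNF615 the letters read in the direction of the gene. These lay 122, 129, 142 and 77 bases before the RefSeq start in the same order. ZNF613, ZNF350 and ZNF615 each held a further match that is not shown. In ZNF613 it lay 214 bases before the RefSeq start on the strand of the gene. In ZNF350 and ZNF615 it lay 104 and 36 bases before, on the other strand. In ZNF614 and ZNF566 the letters lie on the other strand. The RefSeq start lay 2999, 326, 1861 and 341 bases inside the gene as listed in the count table for ZNF577, ZNF613, ZNF614 and ZNF566, so that these 4 matches fall within the listed genes. For ZNF350 and ZNF615 it lay 16 and 19 bases inside, and their matches lie upstream of the listed genes. AANATGG was found in 15.2% of the 145 ZNF promoters of the arm, 4.05% of the 74 of the short arm, 8.82% of the promoters of tested genes and 11.6% of the whole table. Among the 14 tested ZNF genes with a match the median log2 fold change was 0.27, and 12 of them were above 0, while the median of the 68 without one was 0.026. Without the 5 genes of the run, the median of the other 9 with a match was 0.075. With GC content and length trends removed the medians were 0.21 with a match and 0.054 without. Leaving out the run in that setting as well, the median of the other 9 with a match was 0.06. ZNF792 and ZNF575 held the letters and were the 2 below 0 before that removal, at -0.50 and -0.36. These letters were chosen with the response known, 5 of the 14 genes are neighbours in the run, and no test was made. An NRF1-type motif was in 9 of the 82 promoters of tested ZNF genes of the arm (11%), beside 10.5% for all tested genes. The median log2 fold change was -0.16 for these 9 genes and 0.075 for the 73 without it. Tested or not, 8 of 25 promoters of the genes without a KRAB A box held it (32%), beside 13 of 117 promoters of KRAB genes (11.1%).

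**Figure D2:**
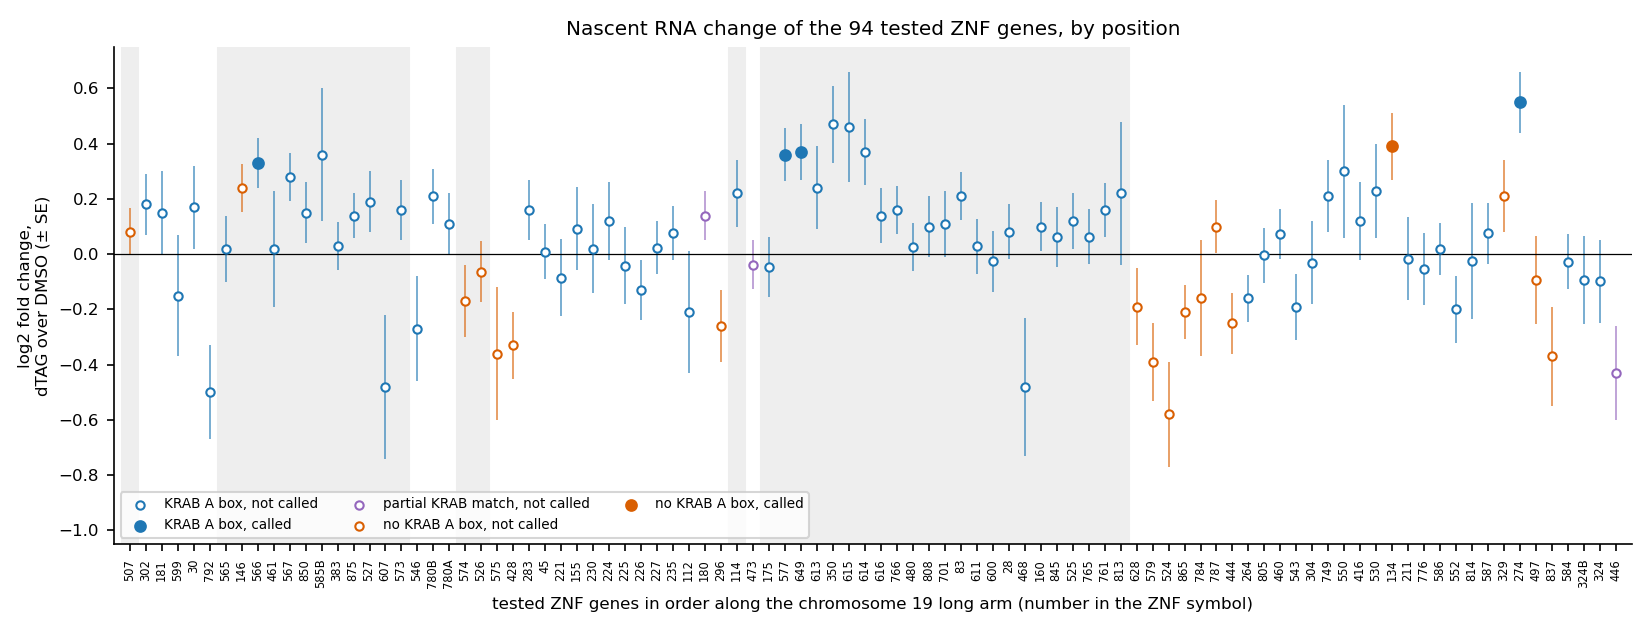
Log2 fold change (dTAG over DMSO, y axis) with its standard error for the 94 tested ZNF genes in order along the arm (x axis), colored by KRAB class, with filled points for called genes and alternating bands for position clusters. The run from ZNF577 to ZNF614 lies between 0.24 and 0.47, while the stretch from ZNF628 to ZNF444 is mostly below 0.

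Among the 4 largest position clusters, the medians were highest in the cluster of 27 genes around ZNF146 and ZNF566 and in the cluster of 40 that holds the run. In the former, 11 of 12 tested genes were above 0, with a median log2 fold change of 0.16. They included ZNF567, which went from 59 and 61.7 CPM with DMSO to 70.3 and 75.9 CPM with dTAG (log2 fold change 0.28, adjusted p = 0.054), ZNF527 (0.19) and ZNF850 (0.15), and the exception was ZNF607 (-0.48). In the latter, 20 of 23 were above 0, with a median of 0.12. Outside the run, its ZNF83 read 171 and 163 CPM with DMSO and 192 and 194 CPM with dTAG (log2 fold change 0.21, adjusted p = 0.13), and ZNF468 was the lowest of the cluster at -0.48. The cluster of 24 genes was split, with 8 above and 7 below 0 and a median of 0.0093. It holds ZNF45 and the neighbours ZNF221, ZNF155, ZNF230, ZNF224, ZNF225, ZNF226 and ZNF227, whose log2 fold changes lay between -0.13 and 0.12. In the telomeric cluster of 60 genes only 11 of 31 were above 0, with a median of -0.031, although it holds ZNF274 and ZNF134. The median GC content of the tested genes in these 4 clusters was 41.4%, 44%, 41.1% and 47.6%. Of all tested genes 47.7% were above 0, and of those under 50% GC 62.6% were. In the cluster of 5 genes at 34.7 to 35 Mb, ZNF302, ZNF30 and ZNF181 had log2 fold changes of 0.18, 0.17 and 0.15, and ZNF599 and ZNF792 had -0.15 and -0.50.

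The median change lay above 0 for genes with a KRAB A box and below 0 for genes without, and the base composition of these groups differed too. Among the 73 tested KRAB genes the median log2 fold change was 0.082, with 51 above 0 and 4 called, and the median GC content was 43.4%. The 18 tested genes without the box had a median of -0.18, with 13 below 0 and 1 called rise (ZNF134), and a median GC content of 55.8%. Within low GC content, the 4 tested genes without the box (ZNF507, ZNF146, ZNF134 and ZNF329) were all above 0, with a median of 0.23. Within GC content of 50% or more, the 4 KRAB genes (ZNF792, ZNF584, ZNF324B and ZNF324) were all below 0, with a median of -0.096. Of 19 tested ZNF genes with GC content of 50% or more, 18 were below 0. Across all tested genes of that GC content the median was -0.19, with 16.2% above 0. Across all tested genes under 50% GC the median was 0.057, with 62.6% above 0. The 69 tested KRAB genes under 50% GC had a median of 0.099, with 73.9% above 0. When GC content and length trends were removed, the median of the genes without the box turned to 0.044 and that of the KRAB genes was 0.060. The part of GC content in this difference was not tested.

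**Figure D3:**
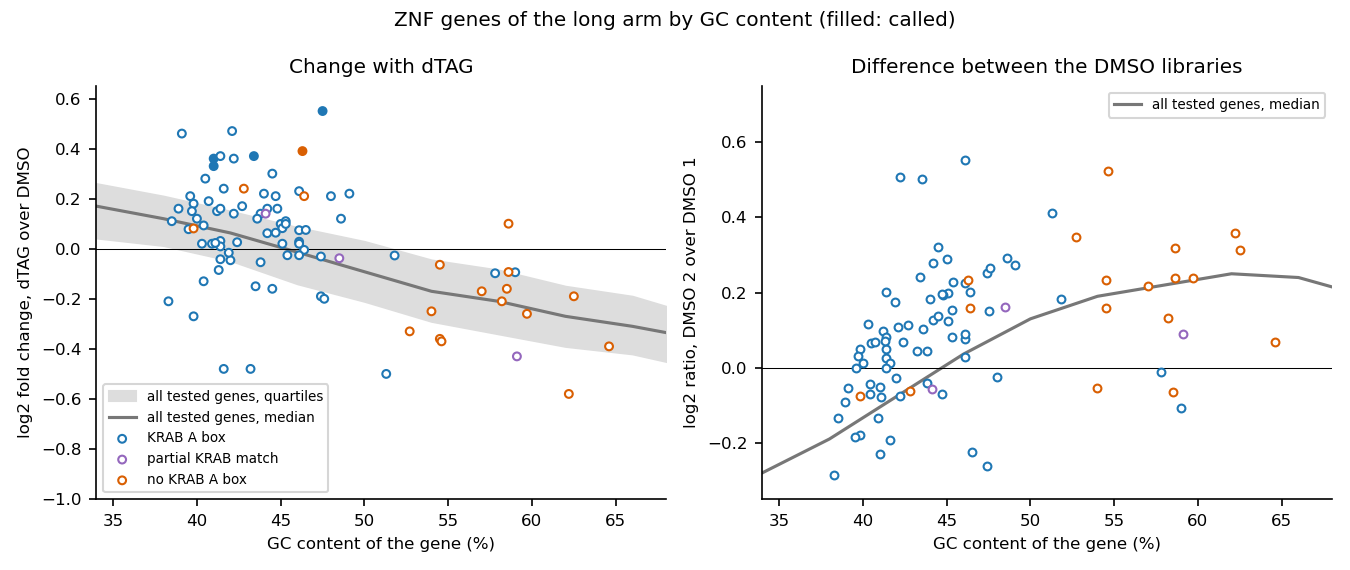
Left, log2 fold change (dTAG over DMSO) against GC content (percent of the gene interval) for the 94 tested ZNF genes, with the median and quartiles of all tested genes in bins of 4%; right, log2 ratio of the DMSO libraries on the same x axis. Both panels slope with GC content, and the 5 called genes lie above the upper quartile of genes of like GC content.

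The lowest log2 fold changes on the arm belonged to ZNF524 and ZNF792, followed by ZNF468, ZNF607, ZNF446 and ZNF579, and none was called. ZNF524, which has 4 fingers and no KRAB A box and a GC content of 62.2%, read 4.43 and 5.68 CPM with DMSO and 3.66 and 3.11 CPM with dTAG (log2 fold change -0.58, adjusted p = 0.064). ZNF579, likewise without the box and at 64.6% GC, read 10.5 and 11 CPM with DMSO and 8.61 and 7.80 CPM with dTAG (log2 fold change -0.39, adjusted p = 0.086). ZNF792, a KRAB gene with 12 fingers and 51.3% GC, read 6.86 and 9.12 CPM with DMSO and 6.26 and 5.02 CPM with dTAG (log2 fold change -0.50, adjusted p = 0.075). In these 3, named after their values were seen, both dTAG libraries were below both DMSO libraries.

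A list of 30 ZNF genes with known roles held 17 tested genes, of which ZNF274 and ZNF649 were called and ZNF350 was described above. ZNF146, which is overexpressed in some tumours, read 189 and 181 CPM with DMSO and 215 and 223 CPM with dTAG (log2 fold change 0.24, adjusted p = 0.088). ZNF444 read 21.7 and 20.9 CPM with DMSO and 18 and 17.8 CPM with dTAG (log2 fold change -0.25, adjusted p = 0.15). ZNF296, a factor of pluripotent cells, read 12.3 and 14.5 CPM with DMSO and 11.4 and 10.9 CPM with dTAG (log2 fold change -0.26, adjusted p = 0.21). In these 3 genes the groups did not overlap, but no call was made.

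Several other ZNF genes with known roles had overlapping groups. ZNF224, which represses ALDOA through KAP1, read 11.4 and 11.5 CPM with DMSO and 11.2 and 13.7 CPM with dTAG (log2 fold change 0.12 ± 0.14). ZNF304, a KRAB gene with 15 fingers, read 9.01 and 7.51 CPM with DMSO and 8.28 and 7.88 CPM with dTAG (log2 fold change -0.031 ± 0.15). ZNF808, which silences MER11 elements in pancreatic development, read 27.1 and 33.1 CPM with DMSO and 31.9 and 32.6 CPM with dTAG (log2 fold change 0.099 ± 0.11). ZNF587 read 27 and 23.1 CPM with DMSO and 25.6 and 27.2 CPM with dTAG (log2 fold change 0.075 ± 0.11), but 59.6% of it was covered by same-strand genes and 21.2% of its 50-base windows occurred in other ZNF genes, so its counts are uncertain. ZNF473, which takes part in histone pre-mRNA processing, read 60.2 and 67.3 CPM with DMSO and 64.5 and 59.7 CPM with dTAG (log2 fold change -0.038 ± 0.089). None of these 5 genes was called under any alternative. The remaining members of the list, ZNF507, ZNF461, ZNF175, ZNF180, ZNF45 and ZNF611, had log2 fold changes from -0.046 to 0.14, none called.

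The other 13 genes of that list were under the count minimum. ZNF331, an imprinted gene, had 8, 24, 9 and 7 counts in DMSO replicates 1 and 2 and dTAG replicates 1 and 2. ZNF382 had 17, 2, 1 and 3 counts in the same order, ZNF568 1, 13, 5 and 5, ZNF260 1, 6, 9 and 1, and ZNF536, a neuronal factor, 16, 40, 24 and 16. ZNF132, ZNF154, ZNF471, ZNF582, ZNF667, ZNF671 and ZNF677, which are often methylated in tumours, each had at most 7 counts in any library. None of these 12 overlaps another gene on the same strand, and ZNF417 is the listed gene at 0.

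Around the minimum, ZNF813 passed with 84, 96, 109 and 92 counts, ZNF468 with 129, 134, 88 and 92, and ZNF607 with 113, 115, 90 and 67. ZNF580 missed it with 36, 62, 48 and 47 counts, ZNF610 with 21, 44, 21 and 24, and ZNF571 with 35, 40, 31 and 20. Among all 72 genes below the minimum, 8 had both dTAG counts above both DMSO counts and 7 had both below. Among these were ZNF135, with 0 and 0 counts against 3 and 8 with dTAG, and ZNF418, with 3 and 13 counts against 0 and 0 with dTAG. In a fit without any minimum, none of the 53 that had a count was called, and the lowest adjusted p was 0.084, for ZNF418. The share of such separations over all genes below the minimum was not taken. Several of them rested on a few reads, such as ZNF347 at 1 and 1 counts with DMSO and 2 and 2 with dTAG.

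Per kilobase of gene, the tested ZNF genes were transcribed at levels close to those of other genes. Their median was 0.959 CPM per kb in DMSO, beside 1.06 for all tested genes, and 40 of 94 lay above that median. ZNF460 was highest at 8.27 and 9.72 CPM per kb in the 2 DMSO libraries, and ZNF146 followed at 7.84 and 7.48. Their ranges did not overlap each other or those of the next genes, ZNF507 (3.73 and 3.55), ZNF865 (3.40 and 3.72) and ZNF787, which lay close together. At the low end stood ZNF468 (0.0249 and 0.0256), ZNF813 (0.0297 and 0.0337), ZNF585B (0.0389 and 0.0554), ZNF607 (0.0487 and 0.0492) and ZNF550 (0.0505 and 0.0631). Of ZNF607, ZNF468 and ZNF585B, 97.4%, 88.2% and 79.1% of the length was covered on the same strand, where reads were not counted. Per kilobase left uncovered, ZNF607 had 1.91 CPM, ZNF468 0.214 and ZNF585B 0.226. With dTAG, log2 fold changes among these 10 genes were 0.074 for ZNF460, 0.24 for ZNF146, 0.081 for ZNF507, -0.21 for ZNF865, 0.10 for ZNF787, 0.36 for ZNF585B, 0.30 for ZNF550, 0.22 for ZNF813 and -0.48 for both ZNF468 and ZNF607. In this order of 94 genes, 74 of 93 pairs of neighbours had overlapping DMSO values, so most neighbouring ranks could not be told apart.

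**Figure D4:**
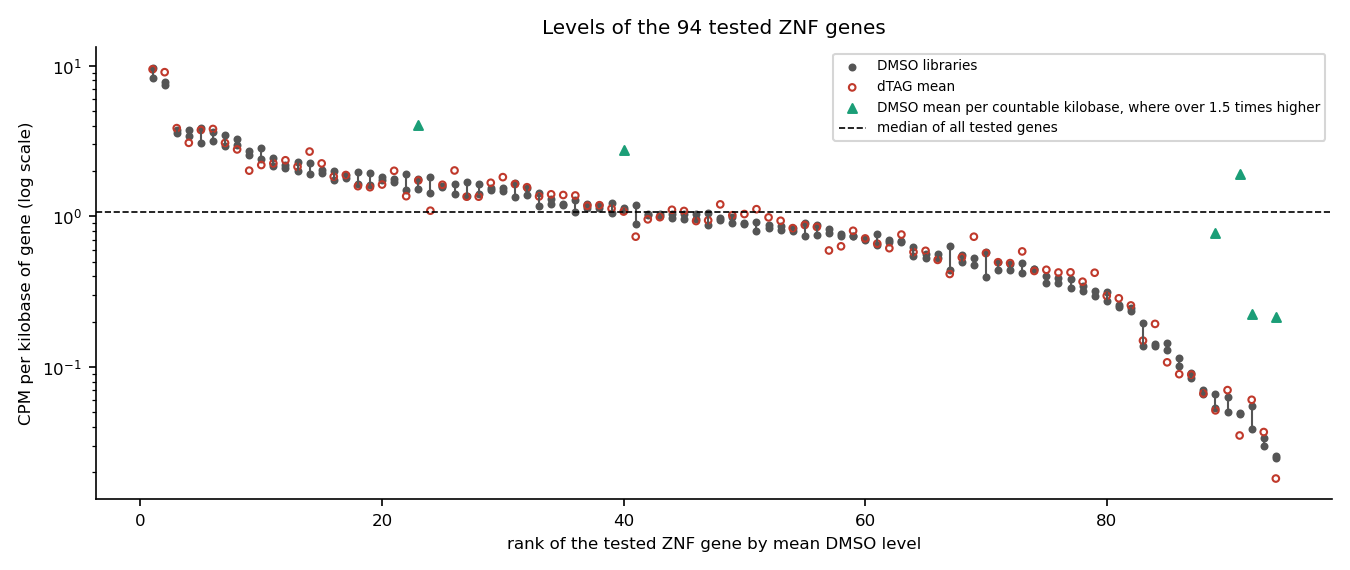
DMSO level (CPM per kilobase of gene, log axis) of the 94 tested ZNF genes by rank, with both DMSO libraries as joined points, the dTAG mean as open circles, and triangles for the level per kilobase not covered by same-strand genes where that is over 1.5 times higher. ZNF460 and ZNF146 stand above the rest, and open circles stay near the joined points along the whole range.

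Beside other lists, the median of the ZNF genes of the long arm was near that of the short arm and above that of their neighbours of other kinds. The median log2 fold change was 0.063 for the 94 tested genes (57 above 0), 0.075 for 40 ZNF genes of the short arm (3 called rises), -0.007 for 210 ZNF genes of other chromosomes (7 called rises and 7 called falls), -0.15 for 372 other genes of the long arm (6 rises and 19 falls), and -0.015 for all tested genes. The median GC content was 44.4%, 43.7%, 43.3% and 53.5% in these 4 lists. The median of the long arm ZNF genes fell below 0 with upper-quartile normalization (-0.012) and without DMSO replicate 1 (-0.0088). In these settings the medians of all tested genes were -0.088 and -0.019. With upper-quartile normalization the ZNF median thus lay 0.076 above that of all tested genes, beside 0.078 with TMM factors. With GC content and length trends removed, the median of the other genes of the arm turned from -0.15 to 0.023, whereas that of the ZNF genes was 0.055. The lists were described by counts and medians and were not tested against each other.

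**Figure D5:**
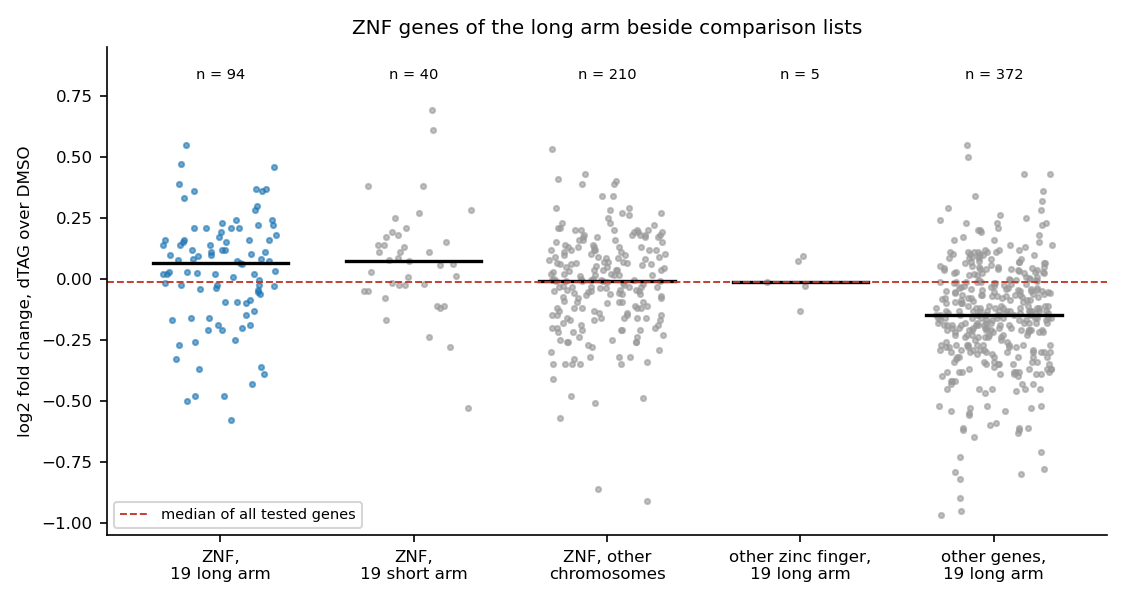
Log2 fold change (dTAG over DMSO, y axis) of each tested gene in 5 lists (x axis), with the list median as a black line and the median of all tested genes as a dashed line. The ZNF lists of both arms have medians of 0.063 and 0.075, and other genes of the long arm lie lower, at -0.15.

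As a whole, the 166 genes accounted for 0.260% and 0.287% of the reads counted in genes in DMSO replicates 1 and 2. Their share was 0.278% and 0.276% in dTAG replicates 1 and 2. Both dTAG values fell between the DMSO values (difference 0.00327 percentage points, exact permutation test, two-sided p = 1.0, n = 2 libraries per group, smallest possible p 0.333). For the 135 KRAB genes the share was 0.182% and 0.201% with DMSO and 0.196% and 0.195% with dTAG, again without separation.

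Of 27 genes of the KAP1 pathway, all of which were tested, 1 rose (3.70%, beside 3.44% of all tested genes) and 3 fell (11.1%, beside 3.66%), with a median log2 fold change of 0.029. ATF7IP2 rose by 0.43 on the log2 scale (adjusted p = 0.009), and its paralog ATF7IP, which stabilises SETDB1, fell by 0.33 (adjusted p = 0.047). MORC2, an ATPase that acts with the HUSH complex, fell by 0.45 (adjusted p = 0.0089), and TRIM28 was the other fall. SETDB1 itself had a log2 fold change of 0.045 ± 0.084, and the HP1 genes CBX1, CBX3 and CBX5 had -0.066, 0.11 and -0.079.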

How the data were processed

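Nascent RNA was measured in 2 DMSO and 2 dTAG libraries. Per the labels and the study's methods, the authors used Trim Galore 0.6.4 for adapters, STAR for alignment (hg38) and Subread 1.6.3 (featureCounts) for counting across whole protein-coding genes. The deposited values are raw counts for 19901 genes and 92 ERCC RNAs. The strand setting is not given in the sources used here. All columns were used. Listed starts are as in the table, and for 6785 of 11138 genes with the GENCODE 44 end they lie 1 base before the GENCODE start.

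Where each of the 4 libraries had 50 counts or more, a gene was tested (12612 in all) with edgeR 4.0.16 (R 4.3.3), using TMM factors, the quasi-likelihood F test, two-sided, and Benjamini-Hochberg adjustment over all of them, with calls at an adjusted p under 0.05. On simulated data for dTAG against DMSO with 12612 genes, 97.5% of 200 genes changed by 1 on the log2 scale were recovered and 2.50% of calls were false. With a simulated GC trend 96.3% of calls were false, and 5.77% after its removal. That trend was the same in both dTAG libraries, steeper than the one in these data, and rose with GC content instead of falling. Neither simulation held a GC difference between the DMSO libraries, so these error rates are not those of the calls reported here. The log2 fold changes of the tested ZNF genes of the arm lay between -0.58 and 0.55. Recovery at sizes under 1 was not tested. The study also used RUVSeq with spike-ins, whose settings are not given in the sources used here, so spike-in scalings were alternatives. The study's methods call the replicates biological without saying how they were separated, so p-values measure the spread between these libraries.

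Libraries of the same replicate number did not deviate together from their group means (correlation of deviations -0.247 across 12612 genes). The ratio of replicate 2 to 1 followed GC content in opposite directions (Spearman correlation 0.746 for DMSO and -0.432 for dTAG). These trends were still in the deviations, so the value cannot settle whether the replicates were paired. KRAB boxes (at least 13 of 18 conserved positions) and fingers were found in translated GENCODE 44 transcripts, since no protein table was at hand. Promoters came from the RefSeq table (GRCh38.p14), and all 1917 of chromosome 19 matched hg38. Named by rule were called genes and the 5 highest and 5 lowest by DMSO level per kilobase. The rule also took a list of 30 with known roles, and 3 on each side of the count minimum. Further genes were picked after the values were seen, such as ZNF567 and ZNF83 among the position clusters and ZNF135 and ZNF418 below the minimum. Genes and lists were chosen with earlier results of these data known. Trends were removed by lowess (span 0.3) on GC content and length. Other alternatives were DESeq2 1.42.0, upper-quartile scaling, ERCC scalings, other minimums, a replicate block, genes without overlaps and leaving out each library. A replicate block with crossed numbers was added after seeing the data. Each SD and SE rests on 2 libraries per group, and intervals cover counting error only.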

Additional observations from a re-analysis of the deposited data

How the results depend on the processing

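The number of called ZNF genes depended on the setting. Beside 5 calls, all rises, the number was 9 with DESeq2, 8 with the ERCC factor as a covariate, 11 with the likelihood ratio test (8 higher, 3 lower), 10 without a count filter (8 higher, 2 lower), 13 with GC content and length trends removed, 15 with the GC trend alone removed (12 higher, 3 lower), 2 with upper-quartile normalization (ZNF274 higher, ZNF524 lower), 2 among genes that overlap no other gene, and 0 with ERCC totals as library sizes. In the report, 5.32% of the tested ZNF genes and 7.1% of all tested genes were called in either direction. These shares were 9.57% and 9.93% with DESeq2, and 8.51% and 9.48% with the ERCC factor. They were 13.8% and 18.1% with GC content and length trends removed, and 2.13% and 8.91% with upper-quartile normalization. Calls over all tested genes, 895 in the report, were 1593 with the likelihood ratio test, 1417 without a filter, 2284 with GC content and length trends removed, 2458 with the GC trend removed and 0 with ERCC totals. ERCC totals differed by more than the gene totals, and that scaling moved the median of all genes to 0.633 and that of the ZNF genes to 0.70, a difference close to that of the report. Upper-quartile normalization gave a median of -0.012 for the ZNF genes and -0.088 for all genes. Leaving out each library in turn gave 0 to 23 called ZNF genes, 68 to 5489 calls over all genes, medians from -0.0088 (without DMSO replicate 1) to 0.083, and differences of the summed share from -0.0104 to 0.017 percentage points. In these fits 1 group has 1 library, which is assumed to vary like the other group. Whether the replicate numbers pair the libraries was not settled. With a replicate block 1 ZNF gene (ZNF274) and 340 genes in all were called, with the block and GC content and length trends removed 15 and 2627, and with the numbers crossed, a pairing chosen after seeing the data, 18 and 3190.

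Many of the named uncalled genes changed sign under at least 1 setting. Apart from the shift of all genes with ERCC totals, the cause was not tested. The log2 fold changes with the ERCC factor were -0.018 for ZNF224, -0.03 for ZNF461, -0.032 for ZNF507, -0.17 for ZNF587 and 0.075 for ZNF473. With ERCC totals, which put all 94 genes above 0, they were 0.15 for ZNF607, 0.19 for ZNF468, 0.39 for ZNF444, 0.41 for ZNF296, 0.44 for ZNF865, 0.58 for ZNF304, 0.60 for ZNF175 and 0.62 for ZNF473, each below the median of all genes in that scaling. With GC content and length trends removed they were -0.027 for ZNF507, -0.049 for ZNF45, -0.071 for ZNF461, 0.02 for ZNF296, 0.026 for ZNF473, 0.034 for ZNF865 and 0.049 for ZNF304, and with the replicate block added -0.026, -0.048, -0.072, 0.021, 0.025, 0.033 and 0.056 in the same order. With the GC trend alone removed they were -0.013 for ZNF507, -0.063 for ZNF45, -0.07 for ZNF461, 0.0071 for ZNF304 and 0.023 for ZNF473. With upper-quartile normalization they were -0.00093 for ZNF460, -0.046 for ZNF611, -0.054 for ZNF461 and -0.065 for ZNF45, and among genes without overlaps -0.0011 for ZNF45. Leaving out 1 library at a time, they ranged from -0.13 to 0.16 for ZNF461, from -0.031 to 0.05 for ZNF45, from -0.0088 to 0.064 for ZNF611, from -0.037 to 0.25 for ZNF808, from -0.038 to 0.19 for ZNF460, from -0.036 to 0.19 for ZNF587, from -0.051 to 0.27 for ZNF787, from -0.033 to 0.26 for ZNF224, from -0.16 to 0.11 for ZNF304 and from -0.12 to 0.043 for ZNF473. The 5 called genes and ZNF350 were above 0 under every setting in which they were fitted. So were the uncalled ZNF146, ZNF180, ZNF550, ZNF585B and ZNF813, with ZNF180 as low as 0.0085. With 50 counts as a minimum, changes in the 72 genes below it were not detectable in these counts. Depth was not the only limit, since 18 of them were at 0 and mostly or fully covered on the same strand, where reads were not counted.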
